A study of Mus musculus with 6 samples.

Results

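A total of 1263 RNA contact sites of JARID2 were listed after retinoic acid at places where the list from untreated cells held no site on the same strand within 10 kb. They were chosen from the 5348 sites of the retinoic acid list by 3 conditions: a score below 1000, a position on an assembled nuclear chromosome, and a distance of more than 10 kb to every untreated site of the same strand. Of the whole list, 5068 sites lay on assembled nuclear chromosomes and 4760 of those scored below 1000, so the chosen sites were 26.5% of the 4760 (exact 95% binomial interval 25.3 to 27.8) and 23.6% of the list. Joined on one strand across gaps of up to 10 kb, they formed 1198 loci. Both lists were used to choose the sites, so their absence from untreated cells is the rule and not a result, and no test was made on it.

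The cells were wild-type E14, a line of mouse embryonic stem cells, grown with serum and LIF, a cytokine that holds them undifferentiated. One group of 3 libraries was left untreated and a second group of 3 was given 2 µM retinoic acid for 24 h. Both groups were fed 500 µM 4-thiouridine for 2 h and irradiated with 400 mJ/cm2 at 312 nm before JARID2 was immunoprecipitated with an antibody made in the submitters' laboratory. The authors pooled the 3 libraries of each group into 1 list, so the lists hold no spread between replicates, n is 1 list per condition, and every comparison here describes 2 lists. Whether the 3 libraries came from separate cultures is not stated in the labels.

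JARID2 is a DNA- and RNA-binding partner of the Polycomb complex PRC2, which places the repressive mark of methylated lysine 27 on histone H3 and keeps developmental genes silent in embryonic stem cells. Retinoic acid binds nuclear receptors that act as transcription factors, and in embryonic stem cells it ends self-renewal and turns on early developmental genes. In PAR-CLIP, 4-thiouridine built into new RNA is crosslinked to protein by light, and the crosslinked base is read as a T-to-C change, so each contact site marks a short stretch of RNA touched by the protein. RNA levels of these cells were not analysed here, so more RNA from a locus and more contact with the same RNA cannot be told apart.

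Coordinates are those of the mm9 build, counted from 1. The gene annotation at hand belonged to a later build, so the loci are given by position and strand, without gene names and without sequences.

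Nearly all of the loci were single sites. There were 1146 loci of 1 site, 46 of 2, 3 of 3, 1 of 4 and 2 of 6, so 52 loci (4.34%, exact 95% binomial interval 3.26 to 5.65) held 2 or more sites, with 117 sites (9.26%) between them. The 3497 retinoic acid sites of the same score range that did have an untreated site within 10 kb formed 2017 loci, of which 592 (29.4%) held 2 or more sites, and the largest held 91. The mirror image in the untreated list, 12315 of 22470 sites (54.8%) with no retinoic acid site within 10 kb, formed 6779 loci, of which 2122 (31.3%) held 2 or more sites. The largest of those held 56, and 200 held at least 7, more than any of the loci described here. The lists differ in length, 23380 sites untreated against 5348 treated. The rule itself parts each list by nearness to sites of the other. It left 15 of the 1198 loci (1.25%) with an unchosen retinoic acid site within 10 kb on their strand. The part of list length and of the rule in these shares was not tested.

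Scores were low. The score is a whole number that the authors gave each site, with no statement in the sources used here of what it counts. Its median was 16 over the 1263 sites (95% order-statistic interval 15 to 17, interquartile range 12 to 26), with a lowest value of 2 and a highest of 774. The 3497 sites with an untreated neighbour had a median of 23 (interval 22 to 24, interquartile range 14 to 55). Scores of 10 to 19 were held by 741 of the chosen sites (58.7%) and by 1312 of the others (37.5%), and scores of at least 100 by 57 (4.51%) and 545 (15.6%). The 1263 sites carried 36158 of summed score, which was 12.4% of the sum over all 4760 sites, and the 57 highest carried 30.6% of that.

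The share of sites without an untreated neighbour was highest at scores of 10 to 19 and lower at high scores. It was 22.5% at scores of 1 to 9 (exact 95% binomial interval 17.0 to 28.9), 36.1% at 10 to 19 (34.0 to 38.2), 24.2% at 20 to 49 (22.0 to 26.5), 14.9% at 50 to 99 (11.7 to 18.6), 14.8% at 100 to 199 (10.8 to 19.7) and 5.31% at 200 to 999 (3.18 to 8.26). Above the limit of 1000, 4 of 308 sites (1.30%) lacked an untreated neighbour. From a score of 10 upwards, each bin thus held a share no higher than the one before it, and the lowest bin stood apart from that order.

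**Figure D1:**
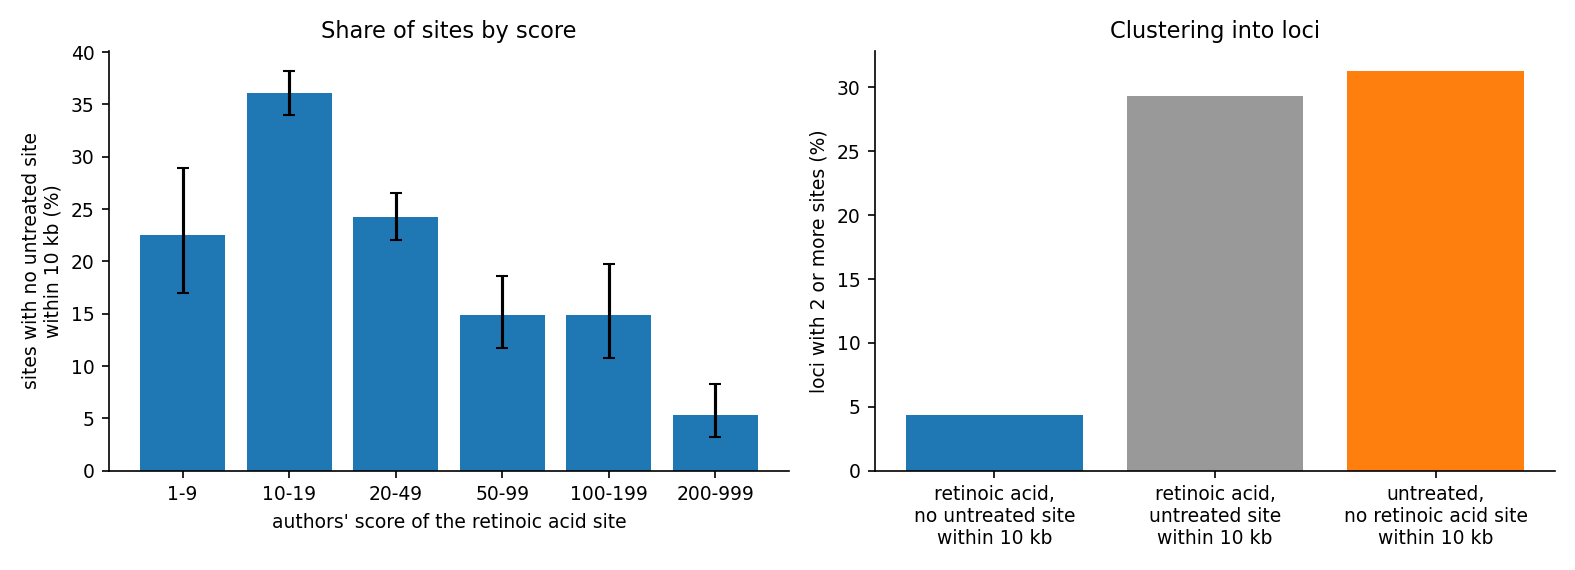
Left, the share of retinoic acid sites with no untreated site within 10 kb on the same strand (percent, y axis) by the authors' score (x axis), with exact 95% binomial intervals; it is 36.1% at scores of 10 to 19 and 5.31% at 200 to 999. Right, the percentage of loci with 2 or more sites among the chosen sites (4.34%), the other retinoic acid sites (29.4%) and the untreated sites with no retinoic acid site within 10 kb (31.3%), each list as deposited. The part of list length and of the rule in these shares was not tested.

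Sites were short. The chosen sites had a median length of 10 bases (interquartile range 8.5 to 14, range 2 to 56) and the others 12 (9 to 16, range 1 to 76). The gap in length was present in every score bin and widest at scores of 200 to 999, at 10 against 14 bases. Among sites scored at least 100, 35 of the 57 chosen sites (61.4%, exact 95% binomial interval 47.6 to 74.0) were at most 10 bases long, against 151 of 545 others (27.7%, 24.0 to 31.7). Strand was balanced, with 644 sites (51.0%) on the plus strand, against 50.7% of the others.

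Distances to the untreated list were mostly far above the 10 kb of the rule. The nearest untreated site of the same strand lay at a median of 106 kb (interquartile range 25.0 to 365 kb, largest 6035 kb), and 257 sites (20.3%) lay between 10 and 20 kb. Scores were a little higher far away: the median was 15 for sites at 10 to 20 kb (95% order-statistic interval 14 to 16), 16 at 100 to 500 kb (15 to 18) and 19 beyond 1000 kb (17 to 22). Scores of at least 100 were held by 3.11% of sites at 10 to 20 kb and by 10.4% beyond 1000 kb. Loci with 2 or more sites showed no such order, at 6.20% of loci at 10 to 20 kb (exact 95% binomial interval 3.51 to 10.0), 4.04% at 100 to 500 kb (2.28 to 6.58) and 2.46% beyond 1000 kb (0.51 to 7.02). On the opposite strand, 44 sites (3.48%) had an untreated site within 10 kb, and the same share was not counted for the other retinoic acid sites.

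**Figure D2:**
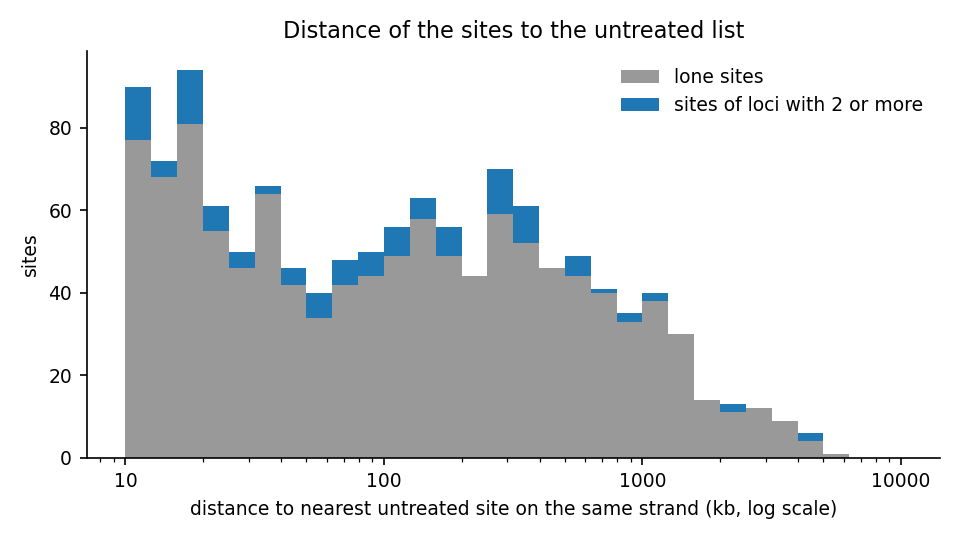
Number of sites (y axis) by distance to the nearest untreated site on the same strand (kb, log scale on the x axis), with lone sites in grey and sites of loci with 2 or more sites in blue, stacked. The distances start at the 10 kb of the rule, the median is 106 kb, and both kinds of site spread over nearly the whole range.

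Sites lay close to the 10 kb limit on both sides of it. The nearest sites just inside had distances of 10003, 10036 and 10066 bases and scores of 25, 10 and 13, and those just outside had distances of 9835, 9916 and 9935 bases and scores of 60, 34 and 20. The highest scores inside were 469, 497 and 774, and the 4 sites kept out by the score limit alone had scores of 1374, 3225, 3373 and 6077. Among sites without an untreated neighbour none scored between 774 and 1374, but the values were sparse on both sides of that limit. For distance, only these nearest sites were compared, and a step at 10 kb was not tested.

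Every autosome and the X chromosome held such sites. The share of the 4760 sites that lacked an untreated neighbour ran from 14.5% on chromosome 19 (35 of 241, exact 95% binomial interval 10.3 to 19.6) and 15.4% on chromosome 11 (73 of 473, 12.3 to 19.01) to 36.1% on chromosome 16 (44 of 122, 27.6 to 45.3) and 37.6% on chromosome 14 (59 of 157, 29.99 to 45.7). Chromosome 11 also held the most untreated sites of any chromosome, 2330, and the part of untreated site density in these shares was not tested. Chromosome 2 held the most chosen sites, 107, and chromosome 1 the most loci with 2 or more sites, 8. Chromosomes 14 and 17 held 59 and 45 sites, all of them alone.

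The largest locus lay on the plus strand at chr6:30690352-30698047, with 6 sites in 7.70 kb. Its sites scored 36, 32, 47, 49, 50 and 13 in order of position. The first, of 12 bases, stood alone at the start of the locus, and the other 5 crowded into its last 0.999 kb, from 30697049 to 30698047, with gaps of 73, 62, 349 and 425 bases between them. No score in the locus reached 100, and 5 of the 6 lay between 32 and 50. The nearest untreated sites of its strand were 291 kb before and 688 kb after it, and the nearest other retinoic acid site was 711 kb away. On the opposite strand the nearest untreated site lay 75.4 kb away, nearer than on its own strand but beyond the 10 kb of the rule.

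A second locus of 6 sites was placed quite differently, among untreated sites. It lay on the minus strand at chr1:170309218-170316204, with scores of 20, 22, 26, 32, 22 and 12 over 6.99 kb. Untreated sites stood only 10.98 kb before it and 40.8 kb after it. It belonged to a longer run of retinoic acid sites. From 170239733 to 170328368, a stretch of 88.6 kb, the retinoic acid list held 16 sites on this strand, of which 10 were chosen sites in 3 loci and 6 lay within 10 kb of an untreated site. The untreated list held 2 sites there, at 170269385 and 170298220, with scores of 13 and 14. The other 2 chosen loci of the stretch had scores of 13 and 12 (from 170239733 to 170248677) and of 34 and 16 (from 170326343 to 170328368). Beyond 170328368 the retinoic acid list went on with a chosen site of score 30 at 170345692 and with sites of 39 at 170354397 and 577 at 170356932, both within 10 kb of the untreated site at 170356956. The 577 was the highest score of the run, and untreated scores within 100 kb of the 6-site locus reached 84. The rule and the 10-kb joining therefore divided a run of sites at this place. The count of 6 understates how many sites lay together.

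Chromosome 13 held 2 of the 6 loci with at least 3 sites, near each other on the minus strand. In the first, from 28942659 to 28951564, sites scored 45, 14, 13 and 165. The last of these was the only one of the 25 sites in the 6 loci to reach 100. In the second, from 29041153 to 29042869, the scores were 21, 39 and 20. A lone site of score 11 lay before both, at 28904867, so that 8 sites stood together in 138 kb with no untreated site on their strand. The nearest untreated site was 183 kb before the first locus, and the next one after the second locus was 412 kb away. The nearest untreated site of the opposite strand was 5086 kb from the first locus.

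The other 2 loci of 3 sites had the lowest summed scores of the 6 loci, 71 on chromosome 5 and 38 on chromosome 11. On the minus strand at chr5:67783752-67787314, scores were 28, 25 and 18 and the gaps between sites 2133 and 1399 bases. The nearest untreated site of the strand was 346 kb away and the nearest other retinoic acid site 1706 kb. On the minus strand at chr11:76147380-76161960, scores were 17, 11 and 10 and the gaps 7509 and 7017 bases, so the locus spanned 14.6 kb, the widest of all 52. Its nearest untreated site of the strand was 107 kb away, and one on the opposite strand lay at 83.5 kb. Over the 6 loci with 3 or more sites, the 25 sites had a median score of 22, and 17 of them scored at least 20.

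**Figure D3:**
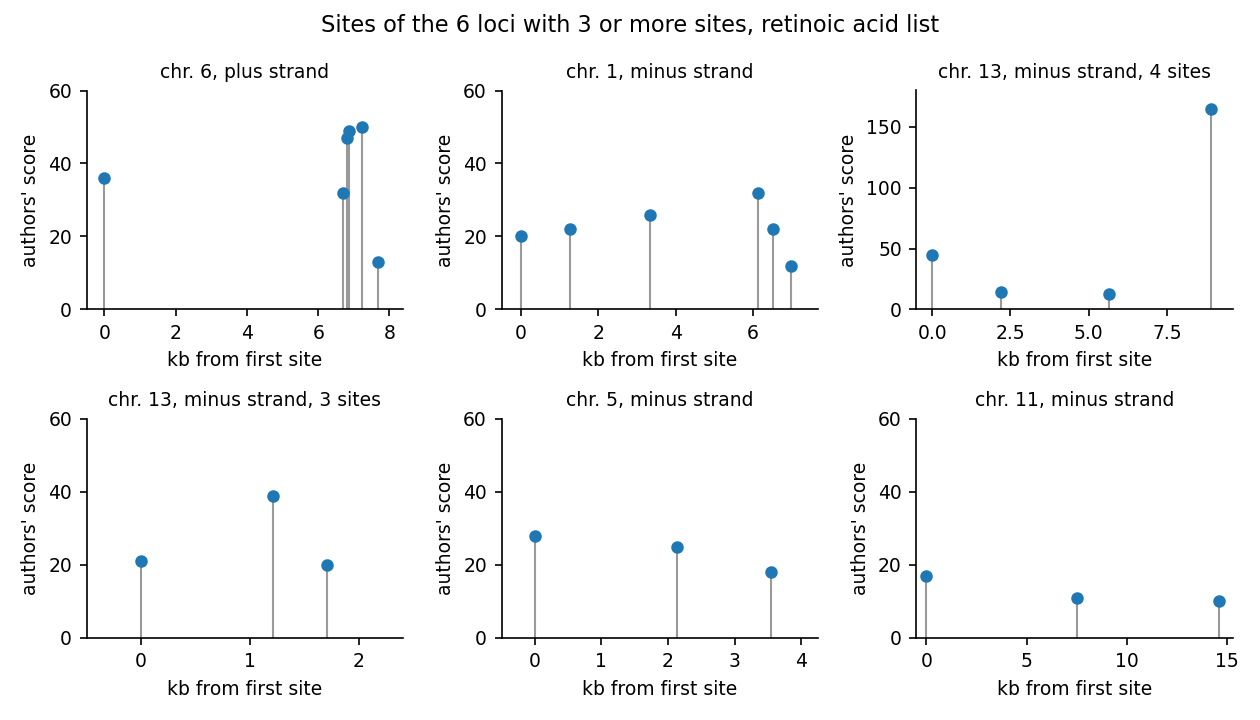
Each panel shows 1 of the 6 loci with 3 or more sites, with each site drawn at its distance from the first site of the locus (kb, x axis) and a height equal to the authors' score (y axis). Only the 4-site locus of chromosome 13 reaches above 100, at 165, and needs a taller axis; in the chromosome 6 locus 5 of 6 sites stand in the last 0.999 kb.

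The loci of 2 sites with high sums included 2 kinds. Sites are named by the letter G, a number and a suffix, and the number is taken here as that of a read group, a set of overlapping reads, which no source used here states. In the first kind, 2 pieces of 1 read group lay a few bases apart. The plus strand of chromosome 1 held sites of score 199 and 194 at chr1:165820424-165820450, separated by 13 bases. The plus strand of chromosome 4 held sites of score 121 and 121 at chr4:16207500-16207513, separated by 5 bases, and the plus strand of chromosome 18 held sites of 41 and 29 at chr18:65996989-65997022, separated by 14 bases. These were the 3 read groups that chosen sites shared, so each of these loci is 1 read group listed as 2 sites.

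In the second kind, a high-scored site had a low-scored companion. The minus strand at chr6:94150544-94156456 held scores of 6 and 285, and the plus strand at chr1:162838342-162839574 held 102 and 8. The remaining loci named by their summed score lay on the plus strand at chr11:32580469-32588688 (40 and 45), on the plus strand at chr18:10814678-10815016 (40 and 28) and on the minus strand at chr2:38767772-38776579 (30 and 25). The next were the chromosome 1 pair of 34 and 16 given above and 2 loci tied at a sum of 48, on the plus strand at chr2:160528527-160530600 (27 and 21) and on the plus strand at chrX:74906953-74907146 (20 and 28).

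Over all 46, the summed score had a median of 34.5 (range 16 to 393) and the span a median of 1.98 kb (range 0.014 to 9.88). Of these loci 18 spanned less than 1 kb and 10 less than 0.2 kb. In 17 the nearest untreated site of the same strand was over 100 kb away. Sites in loci of 2 or more had the same median score as lone ones, 16 for both (117 and 1146 sites), and scores of at least 100 in 5.98% and 4.36%. The 5.98% is 7 sites, and those of 199, 194, 121 and 121 are pieces of the split read groups on chromosomes 1 and 4. The 2 shares therefore do not show that sites in such loci scored higher. Between neighbouring sites of a locus there were 65 gaps, with a median of 1913 bases and a range of 5 to 9859, of which 11 were up to 100 bases and 17 over 5 kb.

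The highest-scored of the chosen sites stood alone. The highest score, 774, was that of an 11-base site on the plus strand at chr7:106393282-106393292, with the nearest untreated site of its strand 527 kb away but one on the opposite strand at 3.79 kb. Next came 497 on the minus strand at chr8:53422357-53422372 (16 bases), 469 on the plus strand at chr5:140321088-140321105 (18 bases), 328 on the plus strand at chr11:108357949-108357958 (10 bases) and 326 on the plus strand at chr6:67427811-67427819 (9 bases). In these 5 places the distance to the next untreated site of the strand ran from 141 to 804 kb, and no other retinoic acid site of the strand lay within 100 kb.

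The read-group numbers were also compared between the lists. Within every chromosome and strand of both lists, the read-group numbers never fell as position rose. Most numbers are skipped: the untreated list names 21469 read groups with numbers up to 247324 (8.68%), and the retinoic acid list names 4702 with numbers up to 221592 (2.12%). Read as a running count of read groups, which the sources do not state, the 2 lists start from like numbers, a ratio of 1.12, although their numbers of sites differ by a ratio of 4.37. On that reading, the numbers skipped between 2 listed sites count the read groups between them that gave no site.

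The untreated numbering left room for read groups around these loci. Of the 1198 loci, 1191 had an untreated site on each side of them on their strand, in 990 distinct gaps of the untreated list with a median width of 886 kb. Every one of these gaps skipped untreated numbers, from 3 to 150 with a median of 35, or 2.69 per 100 kb of gap. The whole untreated list ran at 4.81 numbers per 100 kb of strand, but that figure counts listed numbers too. A gap holds no listed untreated site by definition, so the lower density in gaps is not a result. Read as a running count, every gap held untreated read groups that gave no site. The numbers do not tell where in the gap those read groups lay.

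Set against those counts, a few of these gaps, all picked for holding a chosen locus, held many more read-group numbers after retinoic acid. A lower bound for the retinoic acid list is the run of numbers from the first to the last retinoic acid site in the gap, chosen or not, which is 1 by construction in the 691 gaps with 1 site. In 31 of 990 gaps (3.13%) that lower bound exceeded the number skipped by the untreated list in the whole gap. Untreated gaps without a chosen locus were not counted, so this share has no background beside it. An upper bound, from the nearest retinoic acid sites outside the gap, could be set in 969 gaps and was below the untreated number in 13 (1.34%). The bounds are not symmetric, so the 2 counts do not compare gains with losses, and in the remaining 946 gaps the numbers did not settle which list held more.

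In 6 gaps, chosen after their values were seen, the excess was at least 33 numbers, and the next largest was 19. The widest margin was on the minus strand of chromosome 1 around the 6-site locus, where the 58.7 kb from 170298234 to 170356956 held 14 untreated numbers and at least 163 retinoic acid numbers, 9 chosen sites among 11. The adjoining gap, from 169270618 to 170269385, held 26 against at least 67, and all of the latter lay in 28.4 kb at its end. If the numbers are a running count, both gaps held more retinoic acid than untreated read groups.

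On the minus strand of chromosome 2, the gap from 38610279 to 38938799 held 78 untreated and at least 158 retinoic acid numbers, with 6 chosen sites of scores 15, 10, 15, 19, 30 and 25 over 132 kb and no other retinoic acid site. A second gap of that strand, from 114385745 to 118028502, held 36 against at least 131, the latter within 173 kb, with 3 chosen sites of scores 269, 12 and 13. On the plus strand of chromosome 18, the gap from 9981892 to 10789243 held 49 against at least 113, with 5 chosen sites of scores 9 to 17. The chromosome 13 gap with the 4-site and the 3-site locus held 63 against at least 96. In these 4 gaps all listed retinoic acid sites were chosen sites, spread over 132 to 296 kb, and 10-kb joining had divided them into 3 or 4 loci each.

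Single loci could be set against their gaps in the same way. The 6-site locus of chromosome 6 ran through 35 retinoic acid numbers in 7.70 kb, and the untreated list skipped 38 numbers in the 986 kb around it. Those 38 cannot be placed within the gap, so this locus does not show which list held more numbers there. The chromosome 1 locus of 6 sites ran through 19 numbers, against 14 untreated numbers in the whole gap. In 3 of the 52 loci with 2 or more sites the locus alone held more numbers than its untreated gap. They were that locus, the pair on chromosome 1 from 170239733 to 170248677 (28 against 26) and a pair on the plus strand at chr9:72660791-72661480 (5 against 4). Over the 49 loci that named 2 or more read groups the median was 4 numbers, and 14 of them skipped none between their sites.

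**Figure D4:**
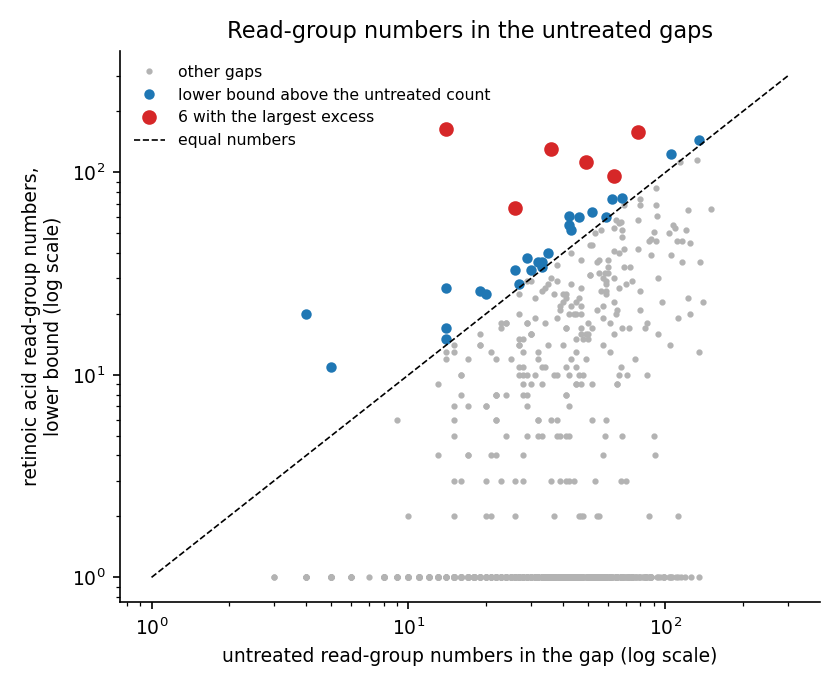
Each point is 1 of the 990 gaps of the untreated list that hold a chosen locus, with untreated read-group numbers skipped in the gap (x axis, log scale) and the lower bound of retinoic acid numbers in it (y axis, log scale). The 31 blue and red points lie above the dashed line of equal numbers, the 6 red ones by 33 or more. The row at 1 includes the 691 gaps with a single retinoic acid site.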

How the data were processed

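Each list pools 3 PAR-CLIP libraries and has 1 line per site, with its position, strand, the name of its read group and a whole number. That number is the authors' score; no source used here says what it means. The submitters' processing notes name Bowtie and mm9. Bowtie's role and version, the site caller and the read depth are not given in these sources. Starts were counted from 1. Chosen sites followed the rule in the opening, the distance being the start of one site less the end of the other, and untreated sites of any score or contig counted as present. The members, the naming rule and the lists were chosen with earlier results of these data known. The rule named every locus with 3 or more sites, the 10 loci of 2 sites with the highest sum (11 with a tie) and the 5 highest lone sites. Gene lists and sequences were not used, since the annotation at hand is of another build. No test between conditions was possible with 1 list each. Intervals are exact and cover counting error only, and sites of one RNA are not independent. The rule and the joining were tested on simulated data. Alternatives changed the distance, strand, score limits and joining gap. Software was Python 3.11.15, numpy 2.4.6, pandas 2.3.3, scipy 1.17.1 and matplotlib 3.10.9.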

Additional observations from a re-analysis of the deposited data

How the results depend on the processing

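The numbers depend on the distance of the rule and on the lowest score kept. With 1 kb in place of 10 kb there were 2200 sites, 2018 loci and 152 loci with 2 or more sites, and with 100 kb there were 646, 615 and 22. Among sites scored at least 100, there were 57 sites, 55 loci and 2 loci with 2 or more sites, with a median score of 165. Those 2 loci were the pairs on chromosomes 1 and 4 that are each 1 read group listed as 2 sites. Joining across 1 kb gave 21 loci with 2 or more sites and joining across 100 kb gave 127, from 1238 and 1100 loci. Ignoring strand, counting only untreated sites scored at least 10, lifting the score limit and keeping retinoic acid sites scored at least 10 each kept the counts of sites, loci and loci with 2 or more sites within 1.5 times. Leaving out the locus with the most sites, run for 2 results, gave 51 loci with 2 or more sites, and the median score stayed at 16 or 17 under all but the minimum of 100. No paired analysis was possible because each list pools its 3 libraries, and for the same reason no library could be left out. Read depth is unknown, so a place without an untreated site may have been below what could be listed there.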
